A study of Rattus norvegicus with 18 samples.

Results

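The genes described here encode the machinery that carries proteins made in the cytosol into mitochondria. They are the protein-coding genes of the deposited table whose symbol begins with Timm or Tomm followed by a digit, together with Pam16, Dnajc19, Grpel1, Grpel2, Samm50, Mtx1, Mtx2, Pmpca and Pmpcb. The rule took 33 of the 32545 genes in the table and used no measured value, but it was chosen with earlier results of these data known. Of these 33 genes, 28 had a value of at least 1 FPKM (fragments per kilobase of gene, scaled to the size of the library) in at least 3 of the 18 libraries and were tested. The other 5, which were Timm8a2, Timm8b, Tomm20l, Timm8a1 on chromosome 8 and Timm10b on chromosome 20, stayed at or below 1.65 FPKM in every library and were not tested. Timm8a1 and Timm10b each name a pair of rows at different places in the genome, so their chromosome is given below. The rule took no row named Timm23, Timm29 or Tomm5, so the counts for the TIM23 channel below lack Timm23 itself.

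Most mitochondrial proteins are encoded in the nucleus and enter through the TOM complex of the outer membrane, whose receptors hand precursors to the Tomm40 channel. Precursors with an N-terminal presequence then pass the TIM23 channel of the inner membrane, pulled by a motor built around the heat shock protein mtHsp70, and the processing peptidase MPP removes the presequence. Carrier proteins of the inner membrane are instead escorted by small TIM chaperones to the TIM22 complex, and barrel-shaped outer membrane proteins are inserted by the SAM complex. Heart muscle is rich in mitochondria, and the nuclear-encoded subunits of its respiratory chain are among the proteins imported.

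Poly(A) RNA was sequenced from H9C2, a line derived from embryonic rat heart that the labels call myocardium, in 18 libraries, 3 in each of 6 groups. NC cells were untreated, ES10 and ES50 cells received 10 or 50 electric pulses of 1500 V/cm and 100 µs, and P cells were given 50 µmol/L of an agent labelled PE for 48 h. P-ES10 and P-ES50 cells had the same PE treatment and then 10 or 50 of those pulses. The title of the series names myocardial ablation and mitochondrial damage as its subject. The labels do not spell out PE, give no delay between pulsing and lysis and do not say that replicates were separate cultures, so p-values measure the spread between these libraries, which may be technical. All groups are 1 cell line, and most defining cardiomyocyte genes were nearly absent. Myh6, Myh7, Ryr2 and Nppa stayed at or below 0.176 FPKM in every library, whereas Tnnt2 ranged from 7.23 to 47.2 FPKM and the myoblast factor Myod1 from 21.8 to 61.9 FPKM.

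Libraries held 14004929 to 17247201 reads, but they divided these very differently between the mitochondrial and the nuclear genome. Transcripts of the mitochondrial genome made up 92.1% ± 0.728 of the reads of ES50 and 48.6% ± 1.66 of those of P-ES50, against 12.9% ± 1.21 for NC, 9.44% ± 0.319 for ES10, 5.48% ± 0.104 for P and 6.46% ± 0.377 for P-ES10 (SD, n = 3 in each). Nuclear genes, to which all import genes belong, therefore had 1230554 to 1466851 reads in an ES50 library, 7813779 to 8060502 in a P-ES50 library and 12059244 to 14665855 in the others. The deposited FPKM set the median gene equal between libraries, so each import gene was measured relative to the other nuclear genes. Reads give shares of a library and not amounts per cell. Less nuclear RNA and more mitochondrial RNA thus cannot be told apart in such bulk samples. Each direction for the 50-pulse groups below holds on that scale, and where the same reads are divided by all reads of a library the median gene shifts by -2.15 in ES50 against NC, by -0.71 in P-ES50 against P and by 1.41 in the interaction of PE with 50 pulses, all on the log2 scale. P against NC shifts by 0.10. In this setting 1 is added after the division, so shifts of low genes are understated.

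Promoters are shown first, because the nuclear factor NRF1 and the ETS-type factor GABPA are known regulators of nuclear genes for mitochondrial proteins. RefSeq promoters of rat build GRCr8 were taken from 250 bases before to 50 bases after each gene's start. They were matched by Ensembl identifier, symbol or synonym to 32 of the 33 genes and gave 30 distinct sequences. The untested Timm8a1 on chromosome 8 and Timm10b on chromosome 20 were given the promoters of their namesakes on chromosomes X and 1. Both strands were searched for the NRF1 letters GCGCATGCG and for the ETS core CCGGAAG. The NRF1 letters are nearly the same on both strands, so their hits overlap. The sequences below run 5′ to 3′ and have every match in capitals. Tomm7 (chr4:12197253-12197552, plus strand) and Grpel1 (chr14:78522819-78523118, minus strand) are the genes with NRF1 letters. Tomm22 (chr7:113107056-113107355, plus strand) and Timm10 (chr3:90314889-90315188, plus strand) each hold 3 ETS cores, and they are set side by side because Tomm22 rose and Timm10 did not pass the test after 50 pulses. Timm13 (chr7:9459496-9459795, plus strand) had the largest rise of the tested import genes in ES50 against NC on the deposited scale, though not in P-ES50 against P, and holds neither motif.
Tomm7: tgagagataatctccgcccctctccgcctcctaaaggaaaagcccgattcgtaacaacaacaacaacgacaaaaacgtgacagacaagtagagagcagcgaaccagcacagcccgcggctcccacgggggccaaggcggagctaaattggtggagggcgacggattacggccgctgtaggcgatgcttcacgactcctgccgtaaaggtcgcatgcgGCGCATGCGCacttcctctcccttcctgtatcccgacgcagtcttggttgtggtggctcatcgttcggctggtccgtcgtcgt
Grpel1: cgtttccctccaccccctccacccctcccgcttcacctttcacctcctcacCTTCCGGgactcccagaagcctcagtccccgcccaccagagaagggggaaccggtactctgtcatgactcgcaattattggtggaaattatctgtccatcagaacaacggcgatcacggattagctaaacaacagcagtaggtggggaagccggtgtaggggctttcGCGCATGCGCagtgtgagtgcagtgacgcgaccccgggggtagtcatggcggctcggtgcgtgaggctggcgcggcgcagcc
Tomm22: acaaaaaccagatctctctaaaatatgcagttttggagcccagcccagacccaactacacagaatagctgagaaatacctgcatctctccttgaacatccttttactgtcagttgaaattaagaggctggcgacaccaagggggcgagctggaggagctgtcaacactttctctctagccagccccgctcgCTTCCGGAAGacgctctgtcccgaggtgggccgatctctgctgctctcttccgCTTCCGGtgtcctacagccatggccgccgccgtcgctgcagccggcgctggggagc
Timm10: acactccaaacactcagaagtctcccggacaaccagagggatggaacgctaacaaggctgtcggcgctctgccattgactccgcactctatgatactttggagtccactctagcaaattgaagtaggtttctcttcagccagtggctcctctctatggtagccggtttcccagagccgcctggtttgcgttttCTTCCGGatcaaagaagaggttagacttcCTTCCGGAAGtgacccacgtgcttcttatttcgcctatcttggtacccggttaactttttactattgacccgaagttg
Timm13: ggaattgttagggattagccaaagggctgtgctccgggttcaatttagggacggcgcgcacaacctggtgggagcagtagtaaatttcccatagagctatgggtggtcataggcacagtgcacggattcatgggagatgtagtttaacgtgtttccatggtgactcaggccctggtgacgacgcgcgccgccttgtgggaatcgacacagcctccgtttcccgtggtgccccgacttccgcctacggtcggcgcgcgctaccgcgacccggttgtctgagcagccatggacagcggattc
The NRF1 letters were in 2 of the 30 import gene promoters (6.67%), in 3.74% of the 8426 promoters of tested genes and in 1.52% of all 33469 promoters. The ETS core was in 12 of 30 (40%), against 19.6% of the promoters of tested genes and 8.75% of all promoters. Both Tomm7 and Grpel1 carry the NRF1 letters within 33 bases before the start. Of the tested genes with a promoter, 6 of 10 with an ETS core rose after 50 pulses without PE, as did 13 of 17 without one, beside 31.9% of all genes tested. Each of these rises is negative when divided by all reads. These matches describe letters in these windows and were not measured as bound sites.

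In untreated cells the import genes spanned a wide range of FPKM, a scale that corrects for gene length. Timm13, a small TIM chaperone, was the most abundant at 238 ± 5.41 FPKM (SD, n = 3), close to Tomm6, a small subunit of the TOM complex, at 228 ± 15.5 FPKM, and their libraries overlapped. Tomm20, a receptor that binds presequences, followed at 127 ± 6.75 FPKM and overlapped neither its upper nor its lower neighbour. Tomm7 at 59.3 FPKM and Tomm22 at 55.4 FPKM overlapped each other, and the Tomm40 channel stood below both at 45.5 ± 1.11 FPKM. Timm17a, a core subunit of the TIM23 channel, was at 36.2 FPKM, while 14 genes from Timm50 down to Timm10 lay between 24.2 and 12.1 FPKM. Timm22, the channel for carrier proteins, had 6.62 FPKM and the motor cochaperone Dnajc19 had 3.94 FPKM.

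**Figure D1:**
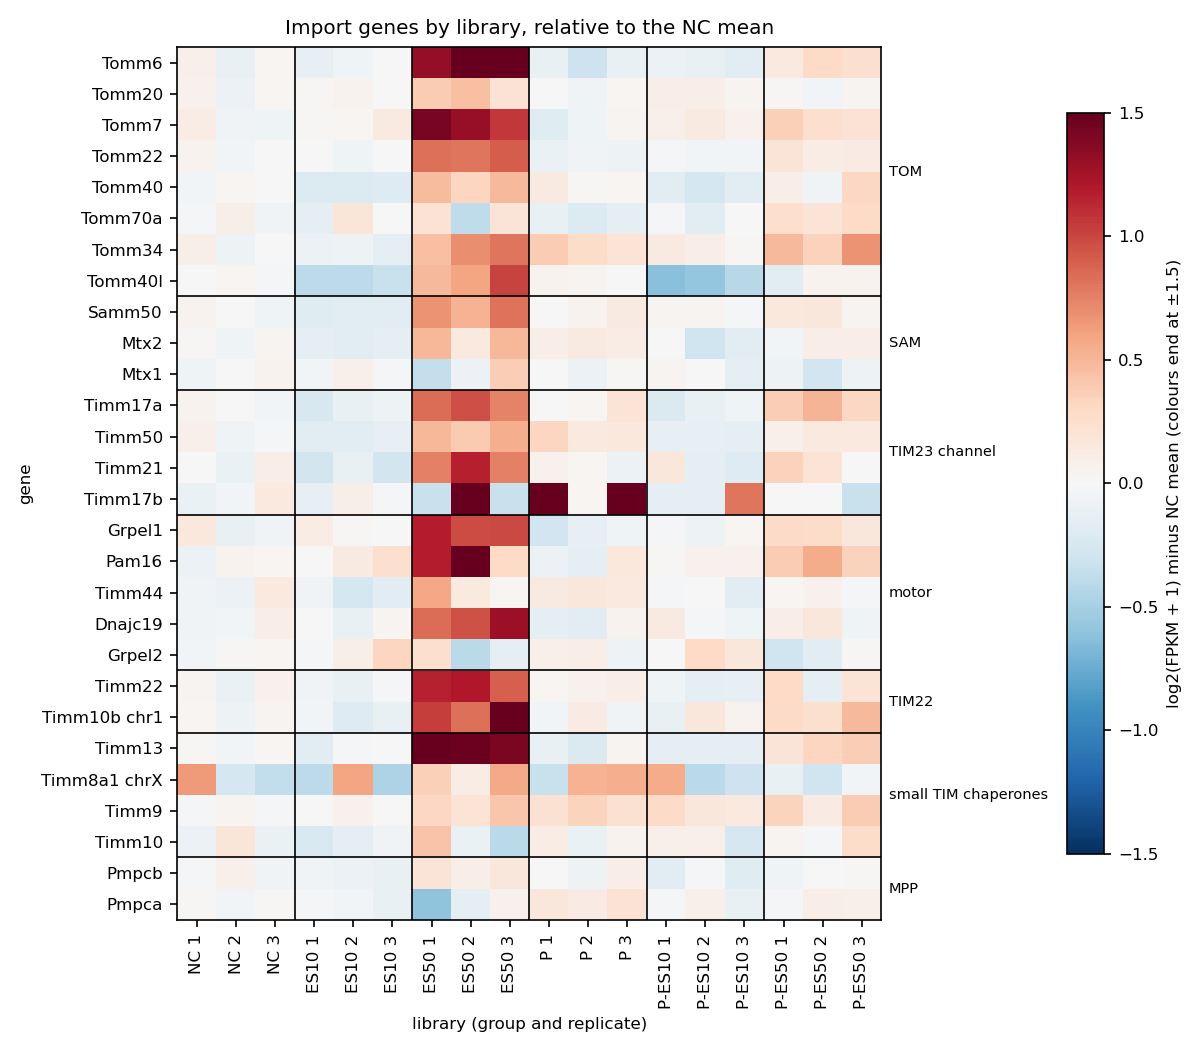
Difference in log2(FPKM + 1) from the NC mean for the 28 tested import genes (rows, grouped by complex) in each of the 18 libraries (columns), with colours ending at 1.5 in either direction. The ES50 columns are the darkest for most rows on the authors' scale; the ends of the range are exceeded by Timm17b in P 1, for example, where it had 13 FPKM against 0.261 FPKM as the NC mean.

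The 50 pulses without PE gave the largest differences. Of 28 tested genes, 20 rose relative to other nuclear genes in ES50 against NC and 0 fell, where 72% of the 11917 genes tested were called, 31.9% higher and 40.1% lower (limma, adjusted p under 0.05). The median log2 change was 0.66 for the import genes and -0.13 for all genes tested. Among genes with at least 1 FPKM in all 18 libraries, 21 of 27 import genes rose and 0 fell. Of all genes in that setting, 40.1% were higher and 36.8% lower. There the median was 0.65 for import genes and 0.04 for all genes. All 3 ES50 libraries lay above all NC libraries for 20 of 28 genes and below them for 0, which held for 29.9% and 37.8% of all genes. The 33 genes together took 0.170% to 0.176% of nuclear reads in NC and 0.295% to 0.301% in ES50. No gene was lower at an unadjusted p under 0.05 or with voom weights. Voom weights called 18 of 28 higher, beside 30.6% of all genes higher and 33.3% lower. Divided by all reads of the library instead, 27 of 28 were called lower in ES50, beside 96.1% of all genes, and none was called higher. The medians were then -2.49 for the import genes and -2.15 for all genes. Because 1 was added after the division, falls of low genes are understated, so these medians do not rank import genes against other genes. The called genes came from each of the roles. They were 7 of 8 tested TOM genes, 3 of 4 of the TIM23 channel, 3 of 5 of the motor and both of TIM22. There were also 2 of 4 small TIM chaperones, 2 of 3 SAM genes and 1 of 2 MPP genes. Tomm34, a cytosolic cochaperone, is counted with the TOM genes here.

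**Figure D2:**
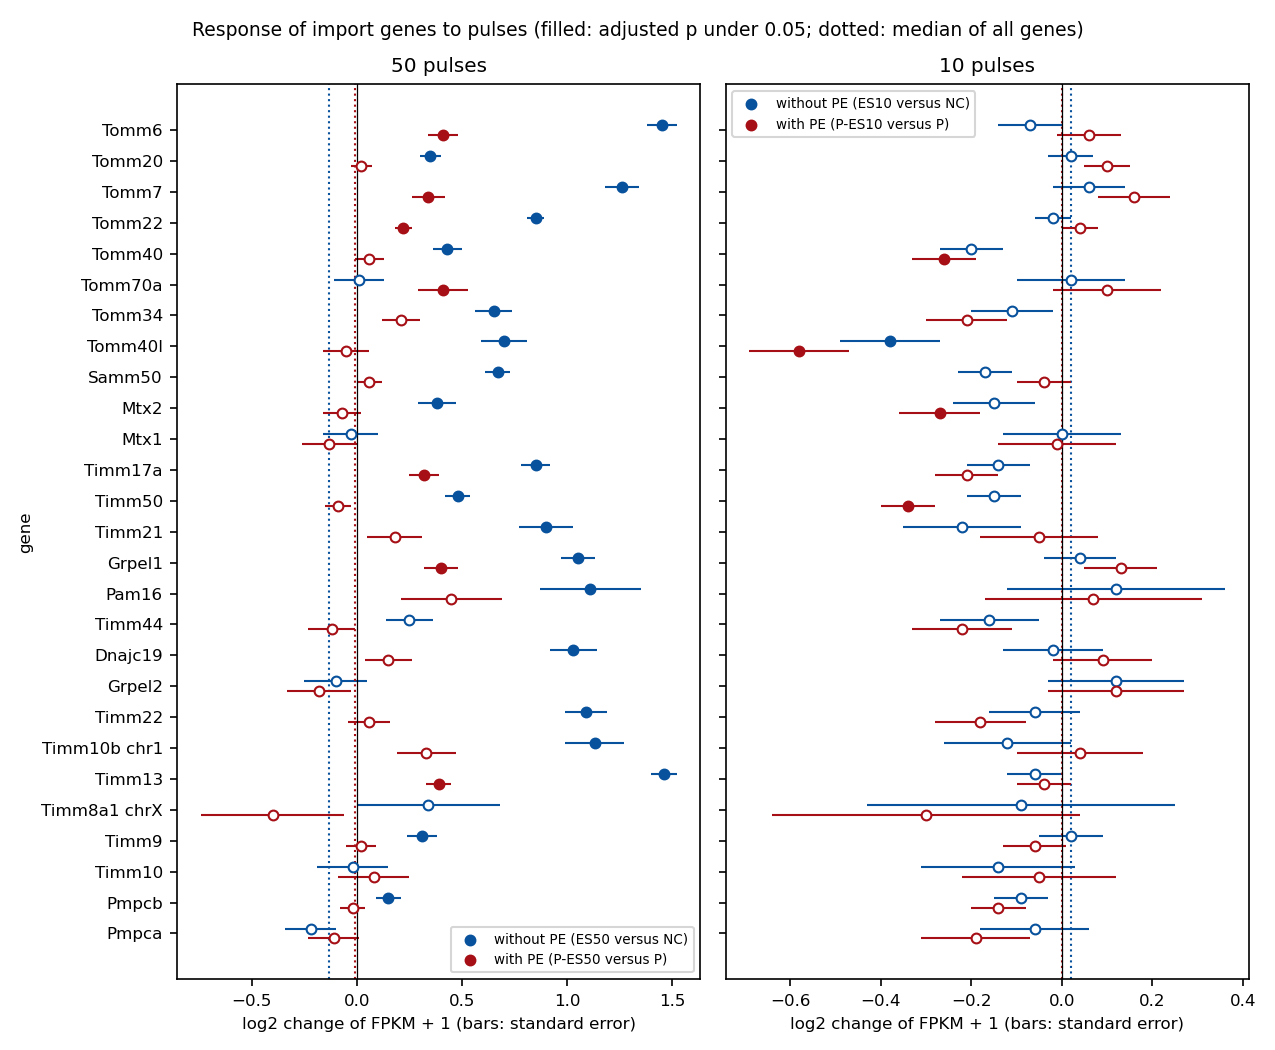
Log2 change of FPKM + 1 with its standard error for 27 tested import genes after 50 pulses (left) and 10 pulses (right), without PE (blue) and with PE (red), filled where the adjusted p was under 0.05; Timm17b is left out because its standard error of 0.86 would set the axis. After 50 pulses the blue points of 20 genes are filled on the higher side and lie to the right of the dotted median of all genes at -0.13; divided by all reads those 20 changes are negative.

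Among the TOM genes, the receptors did not move alike. Tomm22, the central receptor that organises the complex (chromosome 7, 120901934 to 120903684 in Rnor 6.0), had 57.4, 53.9 and 55.0 FPKM in NC and 99.3, 97.4 and 105 FPKM in ES50. Every ES50 library was above every NC library, and the log2 change of FPKM + 1 was 0.85 ± 0.04 (SE; adjusted p = 1.44e-11). Tomm20 (chromosome 19, 59863421 to 59873411) had 132, 119 and 129 FPKM in NC and 165, 173 and 147 FPKM in ES50. These groups did not overlap either, with a log2 change of 0.35 ± 0.05 (adjusted p = 2.22e-05), but quantile normalization gave -0.22 with an adjusted p of 0.000542. Tomm70a, the receptor for carrier precursors, had 15.8, 17.2 and 15.6 FPKM in NC and 19.0, 12.2 and 18.7 FPKM in ES50. Its ES50 libraries lay on both sides of NC, with a log2 change of 0.01 ± 0.12 (adjusted p = 0.944).

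The Tomm40 channel (chromosome 1, 80618154 to 80630038) had 44.3, 46.4 and 45.9 FPKM in NC and 63.5, 57.4 and 64.3 FPKM in ES50. All ES50 libraries were higher, by 0.43 ± 0.07 on the log2 scale (adjusted p = 7.47e-05), and quantile normalization left 0.14 with an adjusted p of 0.103. Tomm40l, a related channel protein, was also higher in each ES50 library, at 7.52, 8.15 and 11.2 FPKM against 5.04, 5.18 and 4.96 FPKM (log2 change 0.70 ± 0.11, adjusted p = 3.42e-05). The small subunits had the larger changes of the complex. Tomm6 had 240, 211 and 233 FPKM in NC and 569, 664 and 649 FPKM in ES50, a mean ratio of 2.75 and a log2 change of 1.45 ± 0.07 (adjusted p = 3.66e-11). Tomm7 went from 64.1, 57.2 and 56.6 FPKM to 161, 148 and 125 FPKM, a log2 change of 1.26 ± 0.08 (adjusted p = 1.43e-09). Neither small subunit had overlapping groups. Tomm34, a cytosolic cochaperone, rose by a log2 change of 0.65 ± 0.09.

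**Figure D3:**
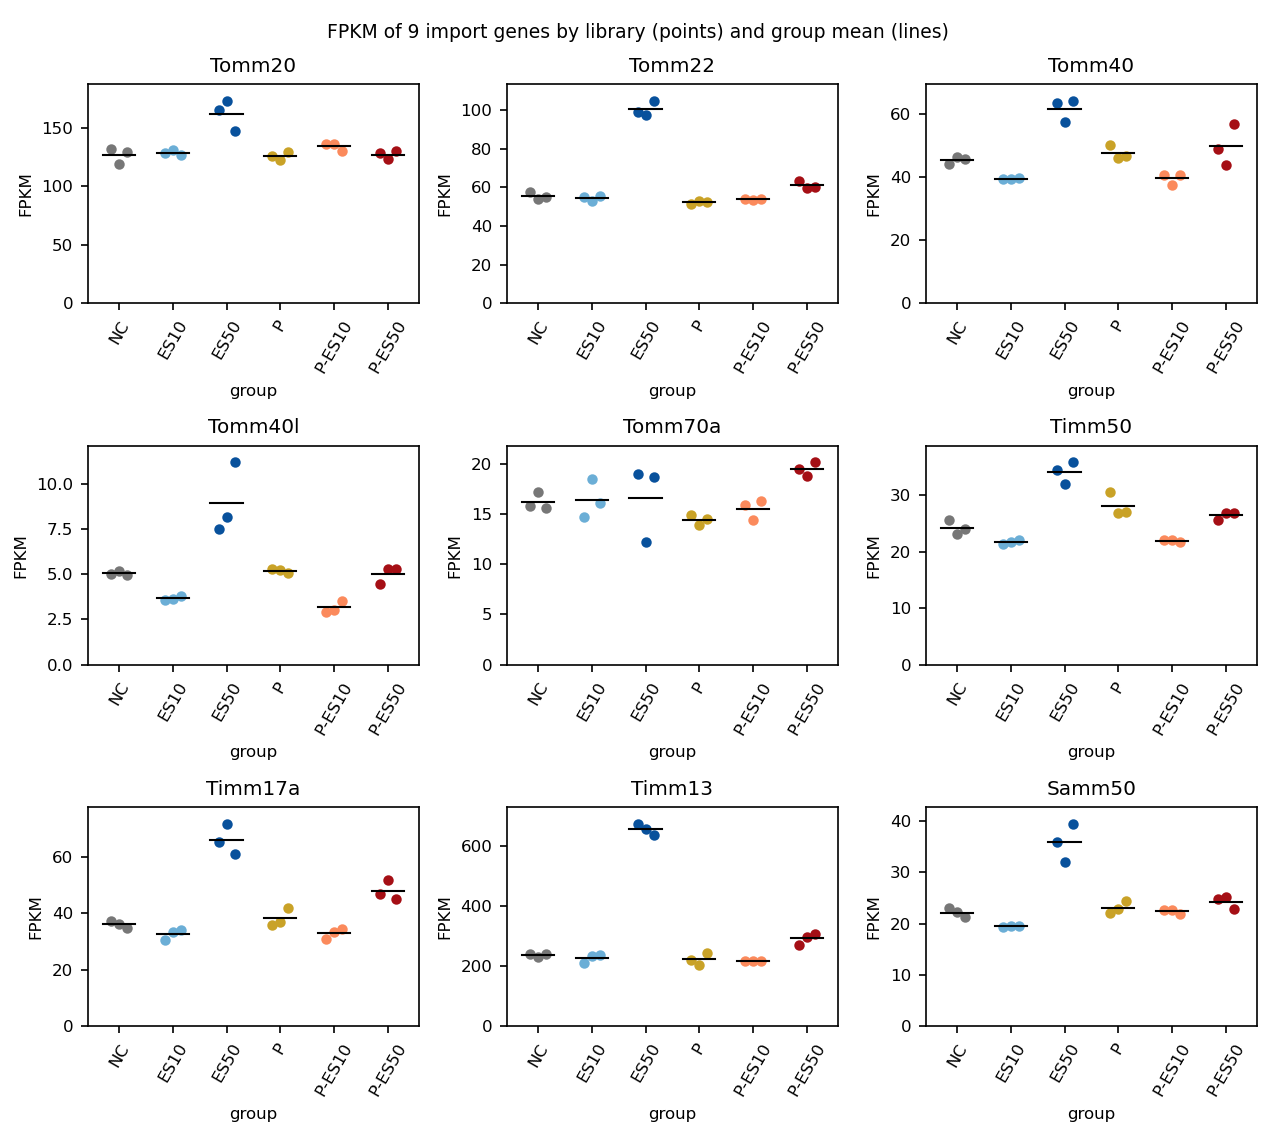
FPKM by library (points) and group mean (lines) for 9 import genes in the 6 groups, with axes from 0. In ES50, Tomm22, Tomm40, Timm50, Timm17a, Timm13 and Samm50 sit above every other library of their panel, whereas the ES50 libraries of Tomm70a spread from 12.2 to 19.0 FPKM; FPKM are the authors' values relative to the median nuclear gene.

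In the inner membrane, Timm50, the receptor of the TIM23 complex (chromosome 1, 85470846 to 85480403), had 25.5, 23.1 and 23.9 FPKM in NC and 34.4, 32.0 and 35.8 FPKM in ES50. Timm17a (chromosome 13, 52124635 to 52136127) had 37.5, 36.1 and 35.0 FPKM in NC and 65.3, 71.9 and 61.2 FPKM in ES50. Both were higher in all 3 ES50 libraries, with log2 changes of 0.48 ± 0.06 (adjusted p = 1.32e-06) and 0.85 ± 0.07 (adjusted p = 4.6e-08). Timm21, which links the channel to the TOM complex and the respiratory chain, rose by 0.90 ± 0.13. Timm17b, the second form of Timm17a, could not be read in the same way, since it had 0, 12.4 and 0 FPKM in ES50 and at most 0.395 FPKM in NC (adjusted p = 0.352).

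The carrier route rose at its channel. Timm22 (chromosome 10, 64556064 to 64563822) had 6.85, 6.09 and 6.93 FPKM in NC and 16, 16.5 and 13.2 FPKM in ES50, without overlap (log2 change 1.09 ± 0.10, adjusted p = 9.79e-08). Timm10b on chromosome 1, a small TIM that sits on the TIM22 complex, rose by 1.13 ± 0.14 (adjusted p = 2.68e-06) on 19 to 29 reads per ES50 library, and it overlaps Dnhd1 on the same strand. The soluble chaperones of the intermembrane space differed from one another. Timm13 (chromosome 7, 11677340 to 11678442) had 240, 232 and 242 FPKM in NC and 676, 659 and 637 FPKM in ES50, a mean ratio of 2.76 (log2 change 1.46 ± 0.06, adjusted p = 8.08e-12). Timm10, the partner of Timm9 in the main chaperone, had 11.3, 13.8 and 11.2 FPKM in NC and 16.6, 11.2 and 8.87 FPKM in ES50. Its groups overlapped (log2 change -0.02 ± 0.17, adjusted p = 0.906), whereas Timm9 rose by 0.31 ± 0.07 (adjusted p = 0.000993), a call that voom weights did not give (0.34, adjusted p = 0.0648).

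For barrel insertion, Samm50, the core of the SAM complex (chromosome 7, 125058897 to 125082505), had 23.0, 22.2 and 21.2 FPKM in NC and 36.0, 32.1 and 39.5 FPKM in ES50. Its ES50 libraries were all higher (log2 change 0.67 ± 0.06, adjusted p = 1.58e-07). The SAM subunit Mtx2 rose by 0.38 ± 0.09, and its partner Mtx1 had a log2 change of -0.03 ± 0.13 (adjusted p = 0.855). Pmpcb, the catalytic subunit of MPP, had 22.6, 24.4 and 22.1 FPKM in NC and 26.4, 24.7 and 26.0 FPKM in ES50. That rise of 0.15 ± 0.06 (adjusted p = 0.0282) had no overlap but lost its call when NC 1, NC 3, ES50 1 or ES50 3 was left out, with adjusted p up to 0.109. The call was also lost with quantile normalization (0.04, adjusted p = 0.526), division by nuclear reads (0.08, adjusted p = 0.226), a fit of only these groups (adjusted p = 0.102) and voom weights (adjusted p = 0.255). Pmpca, the other subunit of MPP, had a log2 change of -0.22 ± 0.12 (adjusted p = 0.094), and without ES50 3 it was called lower at -0.37 (adjusted p = 0.00383), as was Mtx1 at -0.23 (adjusted p = 0.0293).

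Of the 5 motor genes tested, 3 rose in ES50 against NC and Timm44 and Grpel2 did not pass the test, whereas the ATPase itself fell. Hspa9, which encodes mtHsp70 itself and is not taken by the rule, had 72.4, 67.2 and 67.6 FPKM in NC and 26.4, 22.5 and 34.7 FPKM in ES50. Every ES50 library was below every NC library, a log2 change of -1.30 ± 0.11 (adjusted p = 2.62e-08). Grpel1, its nucleotide exchange factor (chromosome 14, 79458963 to 79464770), went the other way on the same scale, from 25.8, 21.2 and 22.2 FPKM to 53.1, 46.4 and 46.8 FPKM (log2 change 1.05 ± 0.08, adjusted p = 6.62e-09). A ratio within a library does not depend on scaling, and that of Grpel1 to Hspa9 was 0.36, 0.32 and 0.33 in NC and 2.0, 2.1 and 1.3 in ES50, with no overlap. The ratios of the other 4 motor genes to Hspa9 were also higher in every ES50 library than in NC, among them Timm44 (0.22 to 0.27 in NC, 0.49 to 0.96 in ES50) and Grpel2 (0.042 to 0.048 in NC, 0.081 to 0.15 in ES50). With PE the ratio of Grpel1 was 0.37 to 0.41 in P and 0.39 to 0.41 in P-ES50, which overlapped, as did those of Dnajc19 and Pam16. The ratio of Timm44 was instead lower without overlap, at 0.35 to 0.36 in P and 0.23 to 0.26 in P-ES50, and so was that of Grpel2, at 0.056 to 0.068 and 0.033 to 0.049. These ratios were not tested. When divided by all reads, both genes were lower in ES50, with log2 changes of -4.38 for Hspa9 and -2.22 for Grpel1.

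The J-domain partner Dnajc19 (log2 change 1.03 ± 0.11, adjusted p = 6.6e-07) and the J-like regulator Pam16 (1.11 ± 0.24, adjusted p = 0.000803) also rose in ES50 against NC. Dnajc19 overlaps Fxr1 on the opposite strand, and whether reads were assigned by strand is not given in the sources used here. Pam16 spread widely in ES50, with 33.7, 53.9 and 17.9 FPKM against 13.5, 14.9 and 14.7 FPKM in NC, and its log2 change ranged from 0.74 without ES50 2 to 1.51 without ES50 3. Timm44, which tethers mtHsp70 to the channel, had 15.9, 15.6 and 18.4 FPKM in NC and 25.3, 18.5 and 16.9 FPKM in ES50. Its groups overlapped and the difference missed the threshold (log2 change 0.25 ± 0.11, adjusted p = 0.0506). Grpel2, the second exchange factor, had 3.07, 3.22 and 3.26 FPKM in NC and 3.94, 2.17 and 2.82 FPKM in ES50 (log2 change -0.10 ± 0.15, adjusted p = 0.563).

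**Figure D4:**
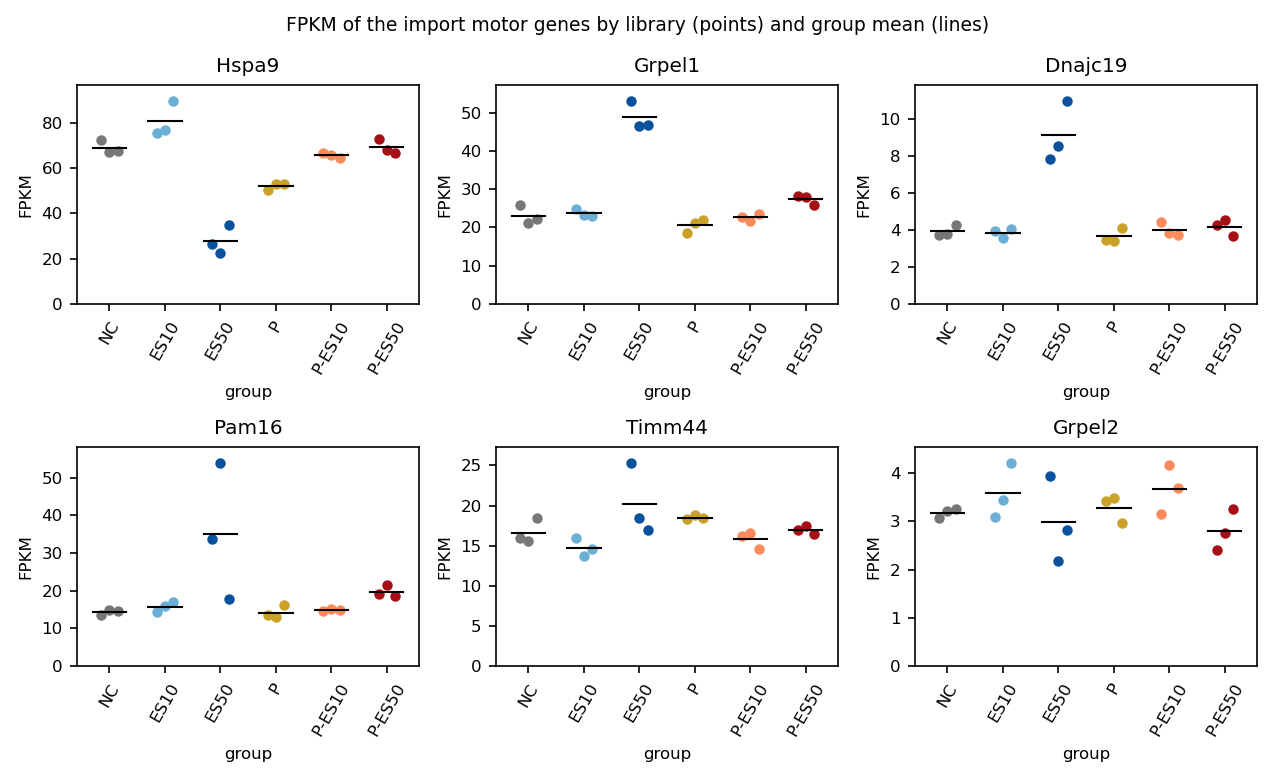
FPKM by library (points) and group mean (lines) of Hspa9 and 5 motor genes in the 6 groups. In ES50, Hspa9 lies at 22.5 to 34.7 FPKM, below all other libraries, while Grpel1 lies at 46.4 to 53.1 FPKM, above all others, and Timm44 and Grpel2 overlap NC.

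Pairs of related genes were compared as log2 ratios within libraries, in 10 comparisons whose exact two-sided permutation test cannot go below p = 0.1 with 3 libraries against 3. The ratio of Grpel1 to Grpel2 was 2.85 ± 0.19 in NC and 4.07 ± 0.33 in ES50, a difference of 1.22 without overlap (exact permutation p = 0.1, adjusted p = 0.2). With PE it was 2.64 ± 0.23 in P and 3.30 ± 0.28 in P-ES50, also without overlap (difference 0.65, exact permutation p = 0.1, adjusted p = 0.2). The ratio of Tomm40 to Tomm40l stood at 3.43 ± 0.04 after 10 pulses and 2.81 ± 0.28 after 50, beside 3.17 ± 0.04 in NC, so it differed in opposite directions after 10 and 50 pulses, both against the same NC libraries (differences 0.26 and -0.36, each exact permutation p = 0.1). It was 3.19 ± 0.06 in P and 3.65 ± 0.14 in P-ES10 (difference 0.45, exact permutation p = 0.1). In P-ES50 it was 3.31 ± 0.22, a difference from P of 0.12 in the same direction as after 10 pulses (exact permutation p = 0.4), so the opposite directions were seen without PE and not with it. With this test and 3 libraries a group, no pair could reach a threshold of 0.05. Timm17a with Timm17b and Timm8a1 with Timm8b were not tested, because 1 gene of each pair was under 1 FPKM in at least 1 library.

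After 10 pulses without PE, differences were small, and 1 gene passed the test. In ES10 against NC 0 of 28 genes were higher and 1 was lower, where 8.57% of all genes tested were called, 6.36% higher and 2.21% lower. The gene was Tomm40l (chromosome 13, 89591718 to 89594738), with 3.60, 3.61 and 3.79 FPKM in ES10 against 5.04, 5.18 and 4.96 FPKM in NC. All ES10 libraries were below NC (log2 change -0.38 ± 0.11, adjusted p = 0.0453), but the call was lost whichever of the 6 libraries was left out, with adjusted p from 0.0967 to 0.137. The call was kept in 9 of 11 other settings, with adjusted p = 0.0014 in a fit without ES50. At an unadjusted p under 0.05, 4 genes were lower and 0 higher, and voom weights called 3 lower and 0 higher. Over all genes, voom weights called 7.92% lower and 15.9% higher. All 3 ES10 libraries lay below NC for 9 of 28 genes and above NC for 0 of 28, where the same held for 15.8% and 23.9% of all genes. Tomm40 was one of the 9, with 39.4, 39.5 and 39.6 FPKM in ES10 (log2 change -0.20 ± 0.07, adjusted p = 0.119), and so were Timm50 (-0.15 ± 0.06, adjusted p = 0.124) and Samm50 (-0.17 ± 0.06, adjusted p = 0.128). The 33 genes took 0.152% to 0.158% of nuclear reads in ES10, below the 0.170% to 0.176% of NC. Myoblast markers moved with 10 pulses, from a summed 41.3 to 43.3 FPKM in NC to 67.6 to 71.3 FPKM in ES10 and from 30.2 to 34.7 FPKM in P to 65.0 to 66.2 FPKM in P-ES10, with 2 of 6 genes at 1 FPKM or more in each of these groups. Their part in the results for 10 pulses was not tested.

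PE alone gave few calls, among the import genes as among all genes. In P against NC 2 of 28 genes rose and 0 fell, where 9.53% of all genes were called, 4.72% higher and 4.81% lower. Timm50 had 30.5, 26.9 and 27.0 FPKM in P (log2 change 0.21 ± 0.06, adjusted p = 0.0266) and Timm9 had 19.0, 20.4 and 19.0 FPKM in P against 15.8, 16.5 and 15.8 FPKM in NC (0.26 ± 0.07, adjusted p = 0.0295). Neither gene overlapped NC. Timm9 lost its call without any 1 of the 6 libraries (adjusted p 0.0582 to 0.121) and Timm50 without NC 2, NC 3 or P 1 (up to 0.131). In other settings Timm9 kept its call in 11 of 11 and Timm50 in 10 of 11. At an unadjusted p under 0.05, 4 genes were higher and 1 lower, and voom weights called 4 higher and 1 lower. Over all genes, voom weights called 15.2% higher and 14.4% lower. The 3 P libraries lay above NC for 5 of 28 genes and below for 2, beside 22% and 20.7% of all genes. Hspa9 was lower in P, at 50.4, 52.9 and 52.8 FPKM (log2 change -0.40 ± 0.11, adjusted p = 0.0292), and that call was lost when any 1 library was left out (adjusted p 0.0659 to 0.112). Without the filter its adjusted p was 0.058, whereas a fit without ES50 gave 0.000303 and voom weights gave 1.99e-05.

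In PE-treated cells 10 pulses lowered 4 of 28 genes and raised 0, where 22.9% of all genes were called, 13.2% higher and 9.66% lower. Tomm40l had 5.27, 5.25 and 5.07 FPKM in P and 2.92, 3.04 and 3.54 FPKM in P-ES10, a log2 change of -0.58 ± 0.11 (adjusted p = 0.00135). Timm50 had 22, 22.1 and 21.7 FPKM in P-ES10, below all P libraries (log2 change -0.34 ± 0.06, adjusted p = 0.000351). Both kept their calls whichever library was left out. Tomm40 had 50.2, 46.0 and 46.6 FPKM in P and 40.6, 37.6 and 40.6 FPKM in P-ES10 (-0.26 ± 0.07, adjusted p = 0.0182), lost without P 1 or P-ES10 2 (up to 0.0826). Mtx2 fell by 0.27 ± 0.09 (adjusted p = 0.0377) and lost its call without P 1, P 2, P 3, P-ES10 2 or P-ES10 3 (up to 0.17). In other settings Tomm40 kept its call in 11 of 11 and Mtx2 in 10 of 11. At an unadjusted p under 0.05, 7 were lower and 0 higher, and voom weights called 8 lower and 1 higher. A fit without the ES50 libraries called 9 lower, among them Timm17a, Timm44, Pmpca and Tomm34. Over all genes, voom weights called 20.3% lower and 22.4% higher, and the fit without ES50 called 18.6% lower and 21% higher. The P-ES10 libraries all lay above P for 3 of 28 genes and below for 9, beside 27.2% and 25.7% of all genes. Outside the rule, Hspa9 went the other way, with 66.5, 65.9 and 64.4 FPKM in P-ES10 (0.33 ± 0.11, adjusted p = 0.0384), a call that was lost without any 1 library (up to 0.113). Division by nuclear reads gave adjusted p = 0.105 and no filter gave 0.071, whereas a fit without ES50 gave 0.000548.

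The difference between the responses to 10 pulses with and without PE passed the limma test for 0 of 28 genes. Of all genes 0.906% were called, 0.562% higher and 0.344% lower. At an unadjusted p under 0.05, 1 import gene was lower. Voom weights called 0 import genes, beside 3.06% of all genes higher and 3.55% lower. Tomm40l and Timm50 are thus not shown to respond differently to 10 pulses in PE-treated cells.

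In PE-treated cells 50 pulses raised 7 of 28 genes and lowered 0, where 28.3% of all genes were called, 14.1% higher and 14.2% lower. The median log2 change of the import genes was 0.06, beside -0.01 for all genes. With at least 1 FPKM in all 18 libraries, 7 of 27 rose and 0 fell, beside 19.3% and 16.4% of all genes. Divided by all reads, 27 of 28 were instead lower and none higher, where 88% of all genes were called lower. Tomm22 had 51.5, 53.2 and 52.5 FPKM in P and 63.3, 59.9 and 60.4 FPKM in P-ES50 (log2 change 0.22 ± 0.04, adjusted p = 0.000447). Timm13 had 221, 204 and 244 FPKM in P and 272, 298 and 308 FPKM in P-ES50 (0.39 ± 0.06, adjusted p = 0.000225), although quantile normalization left 0.12 with an adjusted p of 0.114. For both, every P-ES50 library was above every P library. Tomm6 (0.41 ± 0.07), Tomm7 (0.34 ± 0.08), Grpel1 (0.40 ± 0.08) and Timm17a (0.32 ± 0.07) rose as well, and Tomm6 lost its call with quantile normalization (0.14, adjusted p = 0.108).

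Tomm70a also rose, although it had not passed the test after 50 pulses without PE. It had 14.9, 13.9 and 14.5 FPKM in P and 19.5, 18.8 and 20.2 FPKM in P-ES50, without overlap (log2 change 0.41 ± 0.12, adjusted p = 0.0228), and it lost the call without P 2, P 3, P-ES50 1 or P-ES50 3 (up to 0.0739). It kept the call in 10 of 11 other settings. Its interaction with PE was 0.40 ± 0.18 (adjusted p = 0.0638), which passed at 0.50 without ES50 1 (adjusted p = 0.0202) and at 0.49 without ES50 3 (adjusted p = 0.0252). At an unadjusted p under 0.05, 9 genes were higher and 1 lower in P-ES50 against P, and voom weights called 10 higher and 0 lower. Over all genes, voom weights called 20.4% higher and 22% lower. The P-ES50 libraries all lay above P for 9 of 28 genes and below for 4, beside 24.2% and 26.4% of all genes. The gene lower at that unadjusted level was Timm17b, at 0.266, 0.261 and 0 FPKM in P-ES50 against 13.0, 0.279 and 6.03 FPKM in P, and it was called lower without P 2 (-3.08, adjusted p = 0.0142). Timm50, Timm22, Samm50 and Mtx2 were not called, with log2 changes of -0.09, 0.06, 0.06 and -0.07.

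The response to 50 pulses with PE minus that without was lower for 20 of 28 genes and higher for 0, where 59% of all genes were called, 31.1% higher and 27.9% lower. The medians were -0.59 for the import genes and 0.05 for all genes. With at least 1 FPKM in all 18 libraries, 19 of 27 were lower and 0 higher, beside 35.7% and 30.5% of all genes. In that setting the medians were -0.56 and -0.08. In the main fit the differences were -1.07 ± 0.09 for Timm13 (adjusted p = 4.99e-08) and -1.04 ± 0.10 for Tomm6 (adjusted p = 2.62e-07). They were -0.63 ± 0.05 for Tomm22 (adjusted p = 7.45e-08) and -1.03 ± 0.14 for Timm22 (adjusted p = 1.53e-05). The Timm44 call (-0.37 ± 0.16, adjusted p = 0.0497) and the Timm17b call (-3.02 ± 1.22, adjusted p = 0.0449) were each lost in 9 of the 12 fits that left out 1 library, and the Timm9 call without P 2 or P-ES50 2. The Timm44 call was kept in 2 of 10 other settings and the Timm17b call in 4 of 9. Timm9 was not called with division by nuclear reads (adjusted p = 0.0506) or voom weights (adjusted p = 0.13), nor Tomm40 (-0.15, adjusted p = 0.219) or Tomm20 with quantile normalization. At an unadjusted p under 0.05 the only gene higher was Tomm70a, and voom weights called 0 higher and 18 lower. Over all genes, voom weights called 28.5% higher and 27.7% lower. Divided by all reads, 27 of 28 genes were higher, beside 87.2% of all genes, and only Timm17b was lower. These directions are thus relative to other nuclear genes. The share of mitochondrial reads moved with this result, at 92.1% in ES50 and 48.6% in P-ES50, and its part in the result was not tested. Fibroblast marker genes moved with it too. Their summed level was 2010 to 2060 FPKM in NC, 370 to 389 in ES50, 2200 to 2290 in P and 1670 to 1720 in P-ES50, with 3 or 4 of 6 genes at 1 FPKM or more and Pdgfra, Dcn and Lum at or below 0.0676, 0.612 and 1.88 FPKM. Cardiomyocyte markers summed to 13.8 to 15.3 FPKM in NC and 35.9 to 48.2 in ES50, nearly all of it Tnnt2, and myoblast markers to 41.3 to 43.3 and 73.9 to 82.8 FPKM. Endothelial and macrophage markers were at 0 in ES50 and summed to at most 3.7 FPKM elsewhere. The part of these genes in the result was not tested.

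Import genes outside the rule, chosen by function, gave 8 higher and 3 lower of 15 tested in ES50 against NC, beside 31.9% and 40.1% of all genes. The share called in either direction, 11 of 15, is thus near the 72% of all genes, and the median log2 change of the 15 was 0.37. All 15 were lower when divided by all reads, where 96.1% of all genes were called lower. The outer membrane insertases Mtch1 (log2 change 1.20 ± 0.04) and Mtch2 (1.04 ± 0.12), the inner membrane peptidase Immp1l (1.16 ± 0.11), Dnlz, which keeps mtHsp70 soluble (1.03 ± 0.14), and the J-protein Dnajc15 (0.97 ± 0.10) rose. The sulfhydryl oxidase Gfer (0.68 ± 0.21), the TIM22-associated kinase Agk (0.61 ± 0.14) and the folding chaperone Hspd1 (0.37 ± 0.03) rose as well. Hspa9, the presequence protease Pitrm1 (-0.45 ± 0.07) and 1 of the pair of rows named Chchd4 (-1.18 ± 0.40) fell. The other Chchd4 row was at 0.16 ± 0.12 and was not called. In ES10 against NC 2 of 15 rose, Hspd1 (0.21 ± 0.03) and Pitrm1 (0.28 ± 0.07), beside 6.36% of all genes. In P-ES50 against P 4 rose, Hspd1, Mtch1, Hspa9 and the second Chchd4 row, beside 14.1% of all genes. In the interaction of PE with 50 pulses 2 of 15 were higher and 7 lower, beside 31.1% and 27.9% of all genes. Hspa9 (1.71 ± 0.15, adjusted p = 1.46e-07) and Pitrm1 (0.60 ± 0.10, adjusted p = 9.06e-05) were the higher ones. Mtch1 had 75.6, 74.9 and 72.8 FPKM in NC and 162, 175 and 180 FPKM in ES50, and Hspd1 had 164, 161 and 160 FPKM in NC and 205, 210 and 215 FPKM in ES50, neither with overlap. Divided by all reads, Hspa9 was lower in P-ES50 than in P (-0.48, adjusted p = 7.3e-05).

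Timm8a1 on chromosome X and Timm17b had the largest spread within groups of the 28 tested genes, followed by Pam16 with its range in ES50 given above. Timm8a1 on chromosome X had 29.3, 15.2 and 14.1 FPKM in NC, 13.9, 28.5 and 13.1 FPKM in ES10, 14.5, 27.0 and 27.5 FPKM in P, and 27.7, 13.7 and 14.7 FPKM in P-ES10. The libraries of each of these groups thus fell near 14 or near 28 FPKM, on 157 to 352 reads. Its within-group SD of log2(FPKM + 1) was 0.458, rank 953 of 11917 genes, beside a median of 0.147 over all genes. Timm17b had 185 reads in P 1 and 78 in P 3 but 4 in P 2. It had 17 reads in ES50 2, 15 in P-ES10 3 and at most 5 in each of the other libraries, and its SD ranked 46 of 11917. Tomm22 lay at the steady end, with an SD of 0.0372 that ranked 11815.

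**Figure D5:**
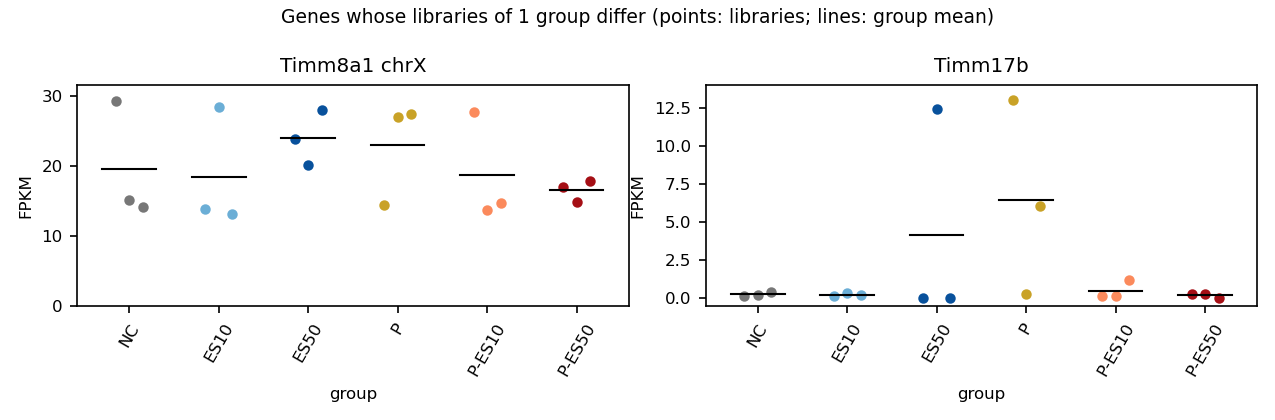
FPKM by library (points) and group mean (lines) of Timm8a1 on chromosome X and of Timm17b in the 6 groups. Timm8a1 libraries of NC, ES10, P and P-ES10 lie near 14 or near 28 FPKM, and Timm17b is highest in P 1, P 3 and ES50 2.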

How the data were processed

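The members and the lists of genes used here were chosen with earlier results of these data known. Each library was made from poly(A) RNA primed with random hexamers, per the labels' protocols. The authors deposited FPKM per gene for 32545 genes and 18 libraries, on rat build Rnor 6.0 per the submitters' processing notes. The aligner, counter, annotation release and strandedness were not given in the sources used here. Multiplied by gene length and divided by a library's smallest step, 100% of the deposited FPKM gave whole reads (tolerance 0.01), which were used as read numbers. The median ratio to the geometric mean library over 10830 genes was 1.009 in each library, which shows that the deposited FPKM set the median gene equal.

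The test took the 11917 genes that reached 1 FPKM in 3 or more libraries. These were not limited to protein-coding genes, as the import genes were. log2(FPKM + 1) was fitted with limma 3.58.1 in R 4.3.3 (6 group means, all 18 libraries, mean-variance trend) and on this scale changes of low genes are understated. Benjamini-Hochberg adjustment was made within each contrast, with calls at an adjusted p under 0.05. The method was tested on simulated data with the same noise setting for all genes. For ES10 against NC it called 42% of 1.5-fold changes, 98% of 2-fold changes and 0.0769% of unchanged genes. For ES50 against NC it called 40%, 90% and 1.49%. Changes under 1.5-fold can thus be missed. Other settings were a pseudocount of 0.1 or 5, no filter or a filter in all 18 libraries, division by total reads or by nuclear reads, quantile normalization, only the groups compared, a replicate block, voom weights on recovered reads, and leaving out each library. Division by nuclear reads, a fit without ES50 and every other setting for the import genes outside the rule were added after seeing the data, as was the length comparison divided by all reads. Ratios of paralogs were compared by exact permutation tests. Any member could be named. Values per library are given for a set of genes listed by function and for up to 2 genes in each direction with the smallest adjusted p in a contrast. Further genes were named after their values were seen. Plots and promoter searches used matplotlib 3.10.9, pandas 2.3.3 and numpy 2.4.6 in Python 3.11.15.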

Additional observations from a re-analysis of the deposited data

Results flagged for a closer look

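For 20 import genes the response to 50 pulses with PE differed from that without PE in a test of the difference itself (limma, adjusted p under 0.05), while 59% of all genes tested were called in that comparison. The log2 differences, with PE minus without, are given by role. For the TOM genes they were -1.04 for Tomm6, -0.92 for Tomm7, -0.63 for Tomm22, -0.37 for Tomm40, -0.33 for Tomm20, -0.44 for Tomm34 and -0.75 for Tomm40l. For the TIM23 channel they were -0.53 for Timm17a, -0.56 for Timm50, -0.71 for Timm21 and -3.02 for Timm17b. For the motor they were -0.65 for Grpel1, -0.88 for Dnajc19 and -0.37 for Timm44. For the carrier route they were -1.03 for Timm22, -0.79 for Timm10b on chromosome 1, -1.07 for Timm13 and -0.29 for Timm9. For SAM they were -0.61 for Samm50 and -0.45 for Mtx2. The calls of Timm44 and Timm17b were lost in most other settings, and those of Timm9, Tomm40 and Tomm20 in some. Divided by all reads of a library, each of these differences except that of Timm17b became positive, where 87.2% of all genes were called higher. The 2 MPP genes had differences of 0.11 for Pmpca and -0.17 for Pmpcb, and neither was called.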

How the results depend on the processing

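Of 997 values of the 54 called gene results under other settings, 872 kept direction and call, 77 kept direction only and 48 reversed. The tested genes had 17 to 3808 reads in the ES50 libraries together, which limits the precision of the low ones. Where no other cause is given, the cause of a change was not tested.

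Dividing by all reads of a library reversed 46 of the 54, since mitochondrial reads then enter the divisor. The log2 changes became, for ES50 against NC, -2.06 for Timm13, -2.07 for Tomm6, -3.11 for Tomm20, -2.18 for Tomm7, -2.56 for Tomm22, -2.89 for Tomm40, -2.48 for Timm17a, -2.22 for Grpel1, -2.68 for Timm50, -2.51 for Samm50, -2.91 for Pmpcb, -2.01 for Pam16, -2.64 for Timm9, -2.57 for Mtx2, -2.31 for Tomm34, -1.73 for Timm22, -1.79 for Timm21, -1.78 for Tomm40l, -1.47 for Dnajc19 and -1.17 for Timm10b on chromosome 1. For P-ES50 against P they became -0.50 for Timm13, -0.49 for Tomm6, -0.54 for Tomm7, -0.66 for Tomm22, -0.56 for Timm17a, -0.46 for Grpel1 and -0.43 for Tomm70a. For the interaction of PE with 50 pulses they became 1.56 for Timm13, 1.58 for Tomm6, 2.23 for Tomm20, 1.64 for Tomm7, 1.89 for Tomm22, 2.07 for Tomm40, 1.92 for Timm17a, 1.76 for Grpel1, 1.74 for Timm50, 1.72 for Samm50, 1.82 for Timm9, 1.74 for Timm44, 1.67 for Mtx2, 1.68 for Tomm34, 1.02 for Timm22, 1.21 for Timm21, 1.02 for Tomm40l, 0.93 for Dnajc19 and 0.85 for Timm10b on chromosome 1. This setting called 0 genes higher and 27 lower in ES50 against NC, 0 higher and 27 lower in P-ES50 against P, and 27 higher and 1 lower in the interaction. It called 4 lower in ES10 against NC, 8 higher in P against NC and 12 lower in P-ES10 against P. Over all genes it called 96.1% lower in ES50 against NC, 88% lower in P-ES50 against P and 87.2% higher in the interaction. The shares were 7.75% lower in ES10 against NC, 23.2% higher in P against NC and 26.2% lower in P-ES10 against P. Of the 15 other import genes this setting called 3 in P against NC, 14 in P-ES50 against P and 15 in the interaction.

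Quantile normalization reversed Tomm20 in ES50 against NC (-0.22) and in the interaction with 50 pulses (0.11). It called 6 genes lower in ES10 against NC, 1 lower in ES50 against NC (Tomm20), 7 lower in P-ES10 against P, 1 higher in the interaction with 50 pulses (Tomm70a) and 1 other import gene in ES10 against NC. Dividing by nuclear reads called 4 lower in ES10 against NC, 1 lower in ES50 against NC (Pmpca), 7 lower in P-ES10 against P, 1 higher in the interaction (Tomm70a), and 1 other import gene each in ES10 against NC and P-ES10 against P. In ES10 against NC 0 genes were lower with a pseudocount of 5 or without the filter, and 4 when only the groups compared were fitted. Without the filter, 0 other import genes were called in P against NC and 1 in P-ES10 against P. Of all genes, quantile normalization called 4.48% lower in ES10 against NC, 32.1% in ES50 against NC and 13.8% in P-ES10 against P. Division by nuclear reads called 5.34%, 42.5% and 14.6% lower there. In the interaction with 50 pulses they called 26.4% and 32.8% higher. In ES10 against NC a pseudocount of 5 called 2.33% lower, no filter 0.954% and only the groups compared 6.05%.

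Voom weights called 3 lower in ES10 against NC, 4 higher and 1 lower in P against NC, and 1 higher and 8 lower in P-ES10 against P, with 4, 5, 7 and 1 other import genes in ES10 against NC, P-ES10 against P, P-ES50 against P and the interaction with 10 pulses. The fit without ES50 called 3 lower in ES10 against NC, 5 higher and 1 lower in P against NC, 9 lower in P-ES10 against P and 1 lower in P-ES50 against P, with 4, 2, 5, 7 and 1 other import genes in ES10 against NC, P against NC, P-ES10 against P, P-ES50 against P and the interaction with 10 pulses. With only the groups compared, 9 were lower in P-ES10 against P, and 5 other import genes were called there and 1 in the interaction with 10 pulses. Over all genes, the fit without ES50 called 14.3% higher and 7.34% lower in ES10 against NC. It called 13.8% and 13.1% in P against NC, 21% and 18.6% in P-ES10 against P, and 21.6% and 23.5% in P-ES50 against P. Only the groups compared gave 20.9% higher and 18.7% lower in P-ES10 against P. Shares for voom weights are given with each contrast above.

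Leaving out 1 library at a time called 0 genes lower in ES10 against NC in each of 6 fits, 19 to 22 higher and 0 to 2 lower in ES50 against NC, 0 to 2 higher in P against NC, 3 to 4 lower in P-ES10 against P, 6 to 8 higher and 0 to 1 lower in P-ES50 against P, and 0 to 1 higher and 17 to 21 lower in the interaction with 50 pulses. Other import genes numbered 1 to 2 in ES10 against NC, 11 to 12 in ES50 against NC, 0 in P against NC, 1 in P-ES10 against P, 4 in P-ES50 against P and 9 to 11 in the interaction with 50 pulses. The log2 paralog ratios changed sign only where the difference was near 0. That of Tomm40 to Tomm40l in P against NC ran from 0 to 0.06, and those of Grpel1 to Grpel2 ran from -0.25 to 0.03 in ES10 against NC and from -0.12 to 0.11 in P-ES10 against P, the last being 0.01 with a pseudocount.

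Same-numbered libraries did not deviate together. Over 45 pairs the correlation of their deviations from the group means ran from -0.0879 to 0.101 with a median of 0.0041. A correlation over all genes cannot show whether they shared a culture, which the labels do not say. With the replicate number as a block the counts were those of the fit without it, at 1 lower in ES10, 20 higher in ES50, 2 higher in P, 4 lower in P-ES10 and 7 higher in P-ES50, except for 18 in place of 20 genes lower in the interaction with 50 pulses.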

Other observations

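In ES50 against NC, on the deposited scale, log2 changes of import genes were higher for shorter genes. Across the 28 tested genes, the log2 change in ES50 against NC had a Pearson correlation of -0.54 and a Spearman correlation of -0.47 with log2 gene length, as a description across genes that share the same libraries. Across all 11917 genes the values were -0.07 and -0.25. For the 28 genes the values were -0.15 and -0.06 when divided by all reads with 1 added afterwards. A divisor per library shifts all genes alike and cannot by itself change a correlation across genes. The added 1 understates falls of low genes in that setting, so the comparison does not decide what the relation rests on. In P-ES50 against P, on the deposited scale, the 28 genes gave 0.06 and -0.31. In ES50 against NC on the deposited scale, from 1000 to under 1500 bases, the median log2 change was 0.70 for 9 import genes, Tomm22 and Tomm40 among them, and 0.35 for all 1569 genes. From 600 to under 1000 bases it was 0.60 for 4 import genes and 0.66 for all 842. Under 600 bases it was 1.11 for 5 import genes, which were Tomm6, Tomm7, Pam16, Timm17b and Timm8a1 on chromosome X, and -0.31 for all 1410. The 1.11 is the value of Pam16, which spread widely in ES50, and Timm17b and Timm8a1 on chromosome X were not called. All 1410 were not limited to protein-coding genes, as the import genes were, so these sets are not alike. The part of length in the result was not tested.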
